A study of Homo sapiens with 9 samples.

Results

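The genes described are 9 that encode cell-surface integrin chains and the secreted matrix proteins that such receptors hold on to. They were listed by symbol: the alpha chains ITGAV, ITGA5 and ITGA2, the beta chains ITGB5, ITGB6 and ITGB8, and the ligands FN1, TNC and THBS1. All 9 were found among the 58381 genes of each count table, and all 9 passed the low-count filter that left 12814 genes for testing. The cells were EGI-1, an established human cholangiocarcinoma line, that is, a cancer of the bile duct. Every group carried a short hairpin RNA under tetracycline control and every group received doxycycline, at 2 ug per ml for 4 days, with RNA taken 24 hours after seeding. The groups were GFPsh, a hairpin against GFP that serves as the control, and FOSL1sh3 and FOSL1sh10, which are different hairpins against FOSL1, the gene of the AP-1 transcription factor FRA-1. Each group had 3 libraries, numbered 1, 2 and 3 in the titles. Whether the replicates were separate cultures, and whether each hairpin line was 1 clone or a pool, is not stated in the labels, so that p-values measure the spread between these libraries, which may be technical. All results come from 1 cell line.

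As background, an integrin is a pair of 1 alpha and 1 beta chain that spans the cell membrane and links the matrix outside to the actin skeleton inside. The alpha5 chain pairs with beta1 and binds the RGD motif of fibronectin, the alphaV chain pairs with beta5, beta6 or beta8 among others, and alpha2 pairs with beta1 as a collagen receptor. The alphaV-beta6 and alphaV-beta8 pairs also bind the latent form of TGF-beta and release the active factor. Fibronectin (FN1) is the main RGD ligand. Tenascin-C (TNC) and thrombospondin-1 (THBS1) are matricellular proteins, which change how cells attach rather than build the matrix, and both are known from the stroma and margins of tumours.

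FOSL1 encodes a subunit of AP-1, and the promoters of the members were therefore read for the AP-1 letters TGANTCA, for the related CRE letters TGACGTCA and for the TEAD letters GGAATG, on both strands. The sequences are from RefSeq (GRCh38.p14): all 9 members matched, with 12 windows of 300 bases, from 250 bases before to 50 bases after an annotated start. The AP-1 letters were in 7.71% of all 35116 windows, the CRE letters in 1.85% and the TEAD letters in 14.0%, and no searched motif overlaps another. Among the members, 1 window held AP-1 letters (ITGA5), 1 held CRE letters (FN1) and 2 held TEAD letters (ITGA5 and THBS1). The AP-1 match of ITGA5 begins 6 bases before the start, on the minus strand at chr12:54419266-54419272, and the CRE match of FN1 begins 183 bases before the start, on the minus strand at chr2:215436244-215436251. These matches are shown with 15 bases on each side, 5′ to 3′, with the matched letters in capitals.
ITGA5: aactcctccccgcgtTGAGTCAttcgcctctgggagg
FN1: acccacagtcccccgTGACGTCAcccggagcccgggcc
The windows of TNC and THBS1 are shown because these were the members whose RNA changed with a hairpin. Each run goes from 250 bases before the start to the first 20 bases of the transcript, at chr9:115118138-115118407 on the minus strand for TNC and at chr15:39580829-39581098 on the plus strand for THBS1, and capitals mark the TEAD letters.
TNC: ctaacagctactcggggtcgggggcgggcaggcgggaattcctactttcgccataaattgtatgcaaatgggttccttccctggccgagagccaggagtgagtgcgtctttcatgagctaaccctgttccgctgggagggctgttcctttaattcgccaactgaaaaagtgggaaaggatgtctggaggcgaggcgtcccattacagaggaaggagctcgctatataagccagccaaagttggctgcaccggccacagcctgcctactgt
THBS1: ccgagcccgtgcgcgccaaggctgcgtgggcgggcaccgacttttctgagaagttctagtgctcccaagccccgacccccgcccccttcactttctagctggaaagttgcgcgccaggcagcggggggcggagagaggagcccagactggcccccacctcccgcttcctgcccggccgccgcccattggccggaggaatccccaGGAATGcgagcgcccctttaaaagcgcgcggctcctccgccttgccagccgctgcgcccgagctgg
None of the 3 motifs was found in the TNC window, and THBS1 held the TEAD letters 46 bases before its start. A match is a string of letters and not a shown site, and these windows do not cover distant elements.

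Library totals ranged from 6893026 to 10604251 counts, so that a gene without a count may still have had up to 3 counts' worth of transcript, 0.283 to 0.435 CPM, counting error only. CPM values are counts divided by the library size after TMM scaling, on a common scale. The targeted gene was checked first: in GFPsh replicates 1 to 3 FOSL1 had 303, 257 and 182 CPM, FOSL1sh3 left 72.3, 70.3 and 44.9 CPM, and FOSL1sh10 left 70.9, 57.1 and 65.8 CPM. It changed by -1.98 and -1.94 on the log2 scale, and the hairpins differed in it by -0.05 (edgeR adjusted p = 0.9). Biliary and general epithelial markers fitted the labelled cell type: 8 of 8 passed the filter, at a summed 10900 to 11800 CPM in GFPsh, 12200 to 13600 CPM in FOSL1sh3 and 11000 to 13000 CPM in FOSL1sh10. Of 8 fibroblast markers 6 were at 0 in all libraries (COL3A1, PDGFRA, PDGFRB, DCN, LUM and THY1), and the list summed to 2.14 to 3.97, 2.98 to 6.87 and 4.71 to 6.01 CPM.

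The hairpins moved different ligands. TNC fell with FOSL1sh3, from 27.0 ± 1.65 to 9.77 ± 1.17 CPM (SD, n = 3 each), while with FOSL1sh10 it was at 33.7 ± 6.27 CPM. THBS1 rose with FOSL1sh10, from 88.4 ± 6.29 to 150.0 ± 18.3 CPM, while with FOSL1sh3 it was at 93.1 ± 3.91 CPM. In bulk RNA, fewer cells that express a gene and less RNA per cell cannot be told apart. FN1 and the 6 integrin chains passed the test with neither hairpin, and none of the 9 genes was called with both. A gene was called at an adjusted p under 0.05 by edgeR's quasi-likelihood test over all 9 libraries and 12814 genes.

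With FOSL1sh3 against GFPsh, which asks what this hairpin does to the transcripts, 1 of 9 members was called and it was lower. Of all genes tested 10.9% were called, 5.21% higher and 5.65% lower. With FOSL1sh10 against GFPsh 1 of 9 was called and it was higher, beside 5.28% of all genes, 3.13% higher and 2.15% lower. Between FOSL1sh3 and FOSL1sh10 2 of 9 were called, both lower in FOSL1sh3, beside 12.7% of all genes, 5.74% higher and 7.00% lower. Calls shared by the hairpins with one direction covered 1.55% of genes tested and 0 of the members. One call among 9 genes is close to the background in either comparison with GFPsh and is no result about the 9 genes as a group. At an unadjusted p under 0.05 the counts were 2, 4 and 5 members. The share of all genes at that cut was not counted, so these counts are no result about the 9 genes as a group either. Median log2 changes of the members were -0.16, 0.25 and -0.47, and those of all genes tested were 0.01, 0 and 0. Members whose 3 libraries lay wholly to one side of the other group's numbered 2 with FOSL1sh3 (29.2% of all genes), 4 with FOSL1sh10 (27.3%) and 5 between the hairpins (30.7%). Both comparisons against GFPsh share the control libraries.

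**Figure D1:**
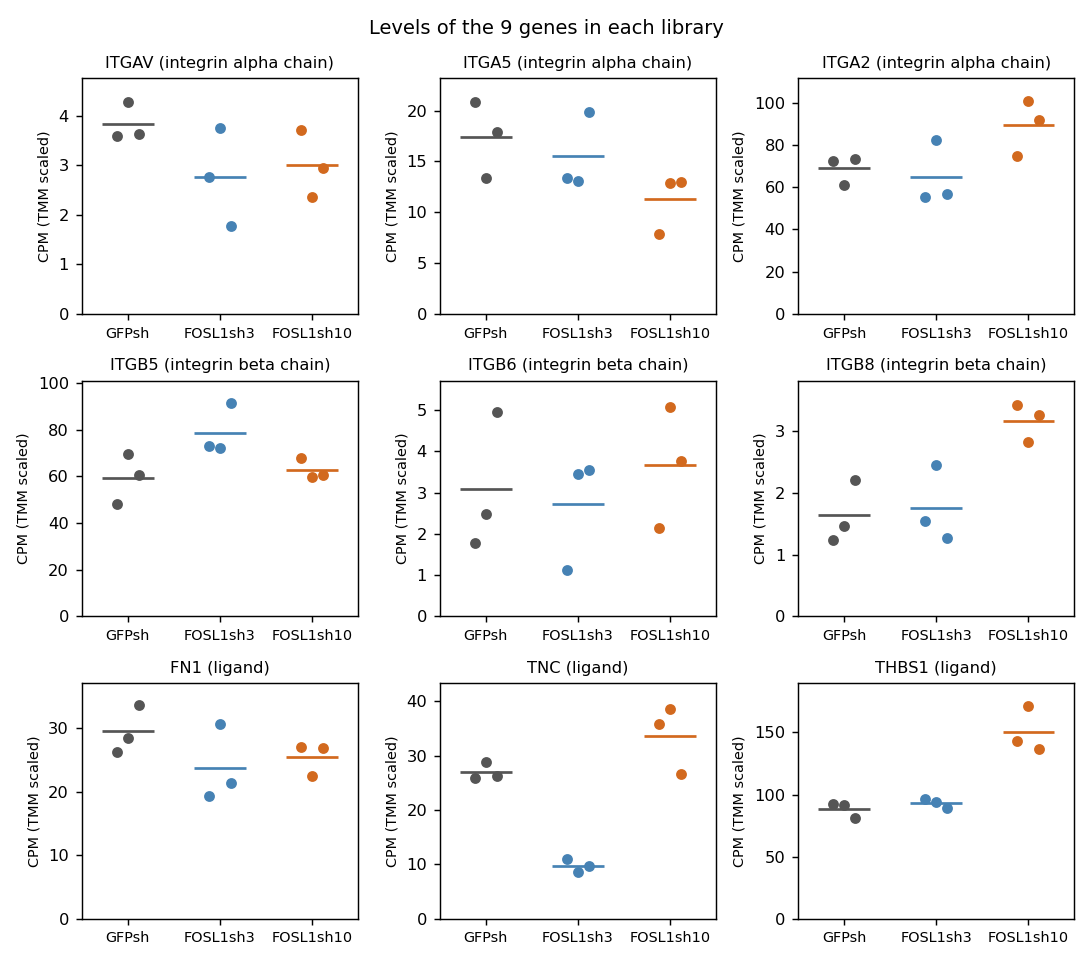
Level of each of the 9 genes in CPM (vertical axes, a separate scale for each gene) in the GFPsh, FOSL1sh3 and FOSL1sh10 libraries, 1 point per library and a line at the mean. The TNC points of FOSL1sh3 (8.66 to 11.0 CPM) lie below all others, and the THBS1 points of FOSL1sh10 (137 to 171 CPM) lie above all others.

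The alpha chains came first among the receptors. ITGAV (chromosome 2, 186590065 to 186680901, plus strand, hg38), which carries the RGD-binding alphaV chain, was at 3.59, 4.28 and 3.64 CPM in GFPsh, 2.77, 3.75 and 1.78 CPM in FOSL1sh3 and 3.71, 2.37 and 2.95 CPM in FOSL1sh10. Its counts were only 14 to 38 per library, and all groups overlapped. The log2 change was -0.48 (95% interval -1.18 to 0.22, adjusted p = 0.387) with FOSL1sh3 and -0.36 (-1.05 to 0.33, adjusted p = 0.615) with FOSL1sh10, both by edgeR. Both intervals are wide, so that no difference was detectable at this depth.

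ITGA5 (chromosome 12, 54395261 to 54419460, minus strand), the fibronectin receptor's alpha chain, was at 20.8, 13.4 and 17.9 CPM in GFPsh, 13.4, 13.1 and 19.9 CPM in FOSL1sh3 and 7.84, 12.9 and 13.0 CPM in FOSL1sh10. The FOSL1sh10 libraries lay below all GFPsh and all FOSL1sh3 libraries, and the GFPsh and FOSL1sh3 libraries overlapped. ITGA5 with FOSL1sh10 gave a log2 change of -0.61 (SE 0.237, 95% interval -1.11 to -0.11, unadjusted p = 0.0191, edgeR adjusted p = 0.155), which did not pass the threshold. With FOSL1sh3 it was -0.16 (SE 0.233, adjusted p = 0.702), and between the hairpins 0.45 (SE 0.238, adjusted p = 0.231). The order of its mean levels was therefore GFPsh at 17.4 ± 3.74 CPM, FOSL1sh3 at 15.5 ± 3.79 CPM and FOSL1sh10 at 11.3 ± 2.96 CPM, with no neighbours told apart by the test.

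ITGA2 (chromosome 5, 52989326 to 53094779, plus strand), the alpha chain of a collagen receptor, was at 72.4, 61.1 and 73.5 CPM in GFPsh, 55.6, 82.2 and 56.8 CPM in FOSL1sh3 and 75.0, 101.0 and 91.9 CPM in FOSL1sh10. All FOSL1sh10 libraries were above all GFPsh libraries, and FOSL1sh3 replicate 2 reached into the FOSL1sh10 range. The change with FOSL1sh10 was 0.37 (SE 0.166, 95% interval 0.03 to 0.72, edgeR adjusted p = 0.218) and with FOSL1sh3 -0.09 (SE 0.167, adjusted p = 0.77). FOSL1sh3 against FOSL1sh10 gave -0.47 (SE 0.166, adjusted p = 0.0744), short of the threshold, but -0.67 (adjusted p = 0.0112) without FOSL1sh3 replicate 2 and -0.64 (adjusted p = 0.0183) with library totals alone as the scaling. ITGB1, the beta1 partner of alpha5 and alpha2, was named here for that pairing and not by its result. It was at 303 ± 17.9, 311 ± 115 and 252 ± 37.4 CPM (SD, n = 3), with FOSL1sh3 replicate 3 at 179 CPM beside 376 and 378 CPM, and it was called in no comparison (adjusted p 0.931, 0.549 and 0.368).

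Of the beta chains, ITGB5 (chromosome 3, 124761948 to 124901418, minus strand), a partner of alphaV in vitronectin binding, was at 47.9, 69.4 and 60.7 CPM in GFPsh, 72.8, 72.0 and 91.2 CPM in FOSL1sh3 and 67.9, 59.7 and 60.7 CPM in FOSL1sh10. The FOSL1sh3 libraries were above all 6 others, by a small margin over the highest GFPsh library. With FOSL1sh3 the log2 change was 0.40 (SE 0.155, 95% interval 0.08 to 0.73, edgeR adjusted p = 0.0997), which missed the threshold. FOSL1sh10 gave 0.08 (SE 0.155, adjusted p = 0.844). FOSL1sh3 differed from FOSL1sh10 by 0.33 (SE 0.154, adjusted p = 0.175).

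ITGB6 and ITGB8 encode the partners that let alphaV act on latent TGF-beta, and both were close to the depth limit. ITGB6 (chromosome 2, 160099666 to 160200313, minus strand) was at 1.79, 2.48 and 4.96 CPM in GFPsh, 1.13, 3.46 and 3.56 CPM in FOSL1sh3 and 2.14, 5.09 and 3.77 CPM in FOSL1sh10. Its counts were 11 to 45 per library, and the groups overlapped throughout: the change was -0.23 (95% interval -1.2 to 0.73, edgeR adjusted p = 0.791) with FOSL1sh3 and 0.25 (-0.67 to 1.18, adjusted p = 0.82) with FOSL1sh10. ITGB6 shares 966 exon bases (20.6% of its own) with a same-strand gene that has no symbol. None of them lie in the last 1000 exon bases of ITGB6, and that gene had 9 counts over all 9 libraries. Reads in the shared bases cannot be told apart. ITGB8 (chromosome 7, 20330702 to 20415754, plus strand) was at 1.24, 1.46 and 2.2 CPM in GFPsh, 1.54, 2.45 and 1.27 CPM in FOSL1sh3 and 3.42, 2.83 and 3.26 CPM in FOSL1sh10, with 9 to 32 counts per library. The FOSL1sh10 libraries of ITGB8 were above all 6 others, and those of GFPsh and FOSL1sh3 overlapped. The change with FOSL1sh10 was 0.93 (SE 0.376, 95% interval 0.14 to 1.72), and the edgeR adjusted p was 0.171. With FOSL1sh3 it was 0.07 (SE 0.404, adjusted p = 0.937), and FOSL1sh3 against FOSL1sh10 gave -0.86 (SE 0.377, adjusted p = 0.141).

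ITGB8 lies opposite an antisense gene, ITGB8-AS1, with which it shares 98 exon bases, none of them in the last 1000 exon bases of ITGB8. The command in the file headers set no strand option, so that reads in the shared bases cannot be told apart. ITGB8-AS1 had 38, 53 and 50 counts in GFPsh, 64, 51 and 62 in FOSL1sh3 and 26, 41 and 40 in FOSL1sh10, 425 in all. Its levels were higher in FOSL1sh3 than in FOSL1sh10 (log2 difference 0.80, edgeR adjusted p = 0.0367), opposite in sign to the value of ITGB8. That call ended under 8 of 14 alternatives, among them library totals alone (adjusted p = 0.0917) and leaving out FOSL1sh3 replicate 2 or 3 or any FOSL1sh10 library (adjusted p 0.0555 to 0.104). In all, the 6 chains had adjusted p-values from 0.0997 to 0.937 with FOSL1sh3, 0.155 to 0.844 with FOSL1sh10 and 0.0744 to 0.855 between the hairpins.

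**Figure D2:**
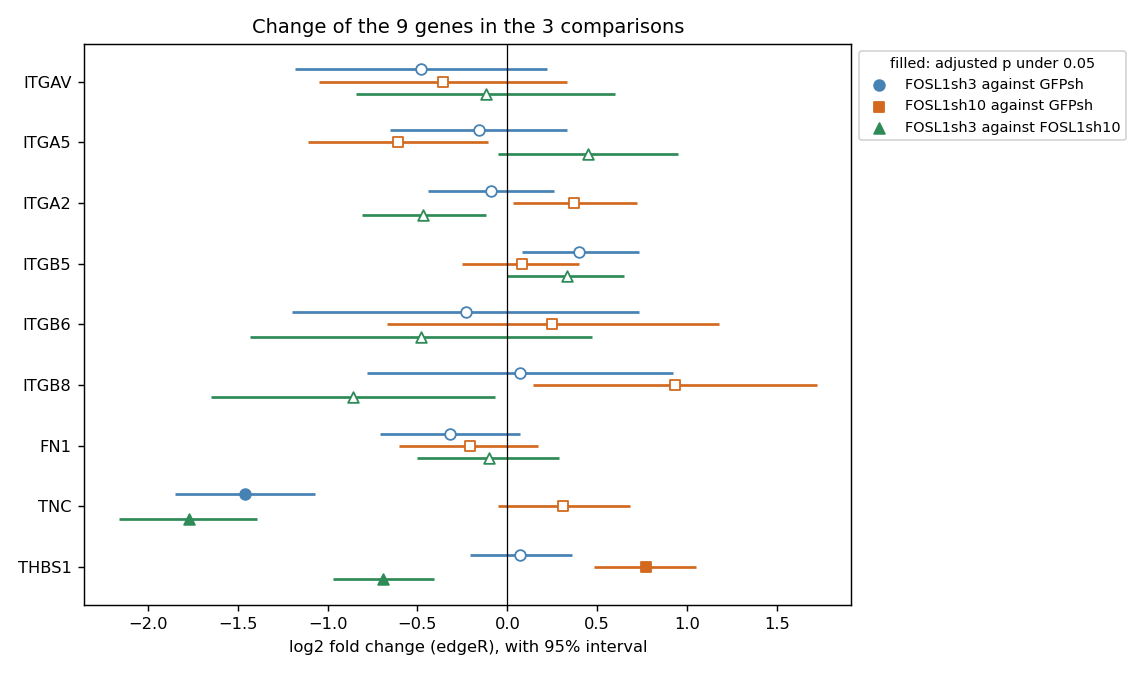
Log2 fold change of the 9 genes (horizontal axis, edgeR) with its 95% interval, for FOSL1sh3 against GFPsh, FOSL1sh10 against GFPsh and FOSL1sh3 against FOSL1sh10. Filled symbols mark an adjusted p under 0.05, and these are TNC at -1.46 and -1.77 and THBS1 at 0.77 and -0.69.

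Among the ligands, FN1 (chromosome 2, 215360440 to 215436172, minus strand) was at 26.3, 28.5 and 33.6 CPM in GFPsh, 19.4, 30.7 and 21.3 CPM in FOSL1sh3 and 27.1, 22.4 and 26.9 CPM in FOSL1sh10. All groups overlapped, and their means were 29.5 ± 3.74, 23.8 ± 6.08 and 25.5 ± 2.66 CPM (SD, n = 3). Fibronectin transcript thus differed from the control by no more than the test could resolve: -0.32 (95% interval -0.71 to 0.07, edgeR adjusted p = 0.291) with FOSL1sh3 and -0.21 (-0.6 to 0.17, adjusted p = 0.586) with FOSL1sh10. The hairpins differed in it by -0.10 (-0.5 to 0.29, adjusted p = 0.761).

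TNC (chromosome 9, 115019578 to 115118257, minus strand) was at 25.9, 28.9 and 26.2 CPM in GFPsh, 11.0, 8.66 and 9.67 CPM in FOSL1sh3 and 35.8, 38.6 and 26.6 CPM in FOSL1sh10. Every FOSL1sh3 library was below every other library, and the lowest FOSL1sh10 library lay within the GFPsh range. With FOSL1sh3 the level was 36.2% of control, a log2 change of -1.46 (SE 0.186, 95% interval -1.85 to -1.07, edgeR adjusted p = 0.000127). With FOSL1sh10 the change of 0.31 (SE 0.172, -0.05 to 0.68, adjusted p = 0.343) was not called. TNC therefore differed between the hairpins by -1.77 (SE 0.185, 95% interval -2.16 to -1.39, adjusted p = 9.97e-06) while FOSL1 itself did not differ between them beyond its spread.

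THBS1 (chromosome 15, 39581079 to 39599466, plus strand) was at 92.8, 91.3 and 81.2 CPM in GFPsh, 96.5, 94.1 and 88.8 CPM in FOSL1sh3 and 143, 171 and 137 CPM in FOSL1sh10. The 3 FOSL1sh10 libraries were the highest, and GFPsh and FOSL1sh3 overlapped. With FOSL1sh10 the level was 170% of control, a log2 change of 0.77 (SE 0.135, 95% interval 0.48 to 1.05, edgeR adjusted p = 0.00182). FOSL1sh3 gave 0.07 (SE 0.135, -0.21 to 0.36, adjusted p = 0.769), an interval that leaves out the size seen with FOSL1sh10. FOSL1sh3 against FOSL1sh10 gave -0.69 (SE 0.135, -0.97 to -0.41, adjusted p = 0.00297).

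THBS1-IT1 lies inside THBS1 on the same strand (chromosome 15, 39586561 to 39587293), in an intron, and shares no exon base with it. It had 5, 13 and 16 counts in GFPsh, 26, 18 and 10 in FOSL1sh3 and 48, 94 and 83 in FOSL1sh10. Reads from unspliced THBS1 transcripts would be counted there, so its values are uncertain as those of a gene of its own. It was higher with FOSL1sh10 than with GFPsh by 2.69 (edgeR adjusted p = 0.00016) and was not called with FOSL1sh3 (0.71, adjusted p = 0.283). The other genes sharing exon bases with THBS1 had 8 counts (FSIP1) and 0 counts (THBS1-AS1) over all 9 libraries.

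Ratios of 2 genes within a library do not depend on how libraries are scaled. For every 100 counts of THBS1 there were 27.9, 31.7 and 32.3 counts of TNC in GFPsh, 11.4, 9.2 and 10.9 in FOSL1sh3 and 25.0, 22.5 and 19.4 in FOSL1sh10. Relative to THBS1, which itself rose with FOSL1sh10, TNC was thus lower in all 6 hairpin libraries than in the controls. Per 100 counts of FN1 there were 98.4, 102 and 78.0 counts of TNC in GFPsh, 56.6, 28.2 and 45.5 in FOSL1sh3 and 132, 172 and 98.9 in FOSL1sh10. Relative to FN1, TNC was below all controls in FOSL1sh3, while in FOSL1sh10 2 of 3 libraries were above all controls and the third was within their range. FN1 counts per 100 of THBS1 were 28.4, 31.2 and 41.4 in GFPsh, 20.1, 32.7 and 23.9 in FOSL1sh3 and 18.9, 13.1 and 19.7 in FOSL1sh10, where only the FOSL1sh10 libraries lay wholly below the controls. These ratios are a description without a test, and they compare reads and not molecules of protein.

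**Figure D3:**
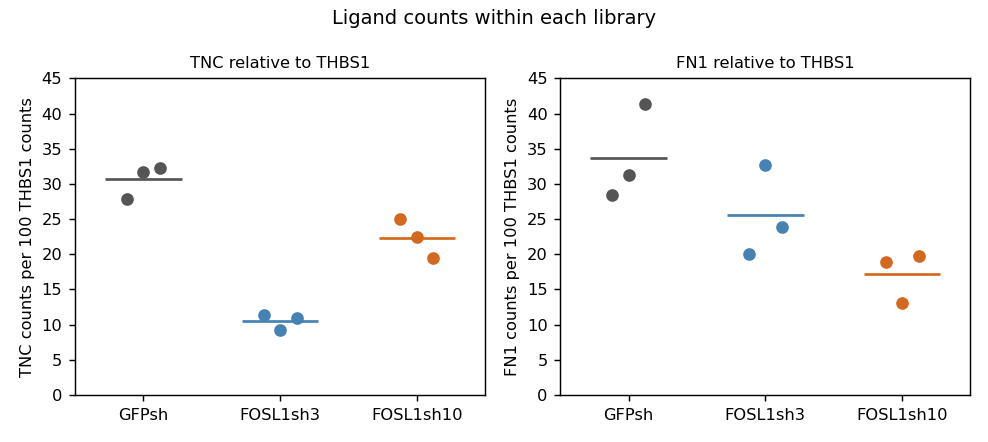
Counts of TNC (left) and of FN1 (right) per 100 counts of THBS1 in the same library (vertical axes), 1 point per library and a line at the group mean. TNC is at 9.2 to 11.4 in FOSL1sh3, 19.4 to 25.0 in FOSL1sh10 and 27.9 to 32.3 in GFPsh.

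The rest of the adhesion system was counted over 6 lists of related genes, each read beside the median over all genes of 0.01, 0 and 0 and the called shares above. Of 20 other integrin chains 8 were tested: 2 rose and 2 fell with FOSL1sh3, and 0 were called with FOSL1sh10. The laminin-binding chain genes ITGB4 and ITGA3 rose with FOSL1sh3 by 1.45 (edgeR adjusted p = 8.28e-06) and 0.80 (adjusted p = 0.00132). ITGA6, another laminin-binding chain gene and named here for that and not by its result, did not share the rise. It was at -0.52 with FOSL1sh3 (edgeR adjusted p = 0.0621) and -0.53 with FOSL1sh10 (adjusted p = 0.0825), neither called. ITGAE, the alpha chain of the E-cadherin receptor of lymphocytes, fell with FOSL1sh3 by 0.74 (adjusted p = 0.0123), a call lost without GFPsh replicate 1 or FOSL1sh3 replicate 3 (adjusted p = 0.0683 and 0.0513). With FOSL1sh10 ITGAE was at -0.46 (adjusted p = 0.133), not called, and the hairpins differed in it by -0.27 (adjusted p = 0.326). ITGA1, the alpha chain of another collagen receptor, fell with FOSL1sh3 by 1.23 (adjusted p = 0.0489), and its call ended under 8 alternatives (adjusted p up to 0.232). Its counts were only 11 to 55 per library, and with FOSL1sh10 it was at a similar -1.13 (adjusted p = 0.0975), not called. Median log2 changes of the list were 0.39, -0.36 and 0.34.

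Other RGD-type ligands and matricellular proteins were represented by 9 tested genes of 28, with 7 of the 28 at 0 in every library. With FOSL1sh3 2 rose, with FOSL1sh10 1 rose, and none of the 9 fell with either. L1CAM, an adhesion molecule of neurons and of invasive tumour cells, rose with both hairpins, from 6.71 ± 0.893 to 22.1 ± 4.78 and 19.8 ± 2.59 CPM (SD, n = 3), log2 changes of 1.71 and 1.56 (edgeR adjusted p = 9.62e-05 and 0.00016). THBS3, a thrombospondin of the pentameric subgroup, was at 5.93, 5.74 and 6.83 CPM in GFPsh, 16.6, 13.1 and 17.2 CPM in FOSL1sh3 and 6.99, 4.64 and 7.13 CPM in FOSL1sh10. Its FOSL1sh3 libraries were above all others, with changes of 1.34 (SE 0.225, edgeR adjusted p = 0.00135) and 0.02 (SE 0.237, adjusted p = 0.983). The paralogues THBS1 and THBS3 were thus each called with a different hairpin. TGFBI (0.42 and 0.55, adjusted p = 0.11 and 0.0632) and ADAM15 (0.45 and 0.07, adjusted p = 0.0591 and 0.849) did not pass. Medians over the 9 were 0.19, 0.23 and 0.15.

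Collagens, a family that includes ligands of the ITGA2 and ITGA1 receptors, had 8 tested genes of 13. With FOSL1sh3 1 rose and with FOSL1sh10 2 rose and 2 fell, and the medians were 0.43, 0.13 and 0.36. COL17A1, the transmembrane collagen of hemidesmosomes, fell with FOSL1sh10 from 53.7 ± 3.95 to 27.1 ± 1.83 CPM (log2 change -0.99, edgeR adjusted p = 0.000214). With FOSL1sh3 COL17A1 was at 43.3 ± 0.558 CPM, all libraries below GFPsh, a smaller change of -0.31 (adjusted p = 0.145) that was not called. The hairpins differed in it by 0.68 (adjusted p = 0.00394). COL12A1, a collagen that sits on the surface of fibrils, rose with FOSL1sh10 from 14.3 ± 2.44 to 30.5 ± 4.89 CPM (1.09, adjusted p = 0.00219). With FOSL1sh3 COL12A1 was at 0.40 (adjusted p = 0.207), not called. COL7A1, the anchoring fibril collagen, was at 2.87 ± 0.8, 5.4 ± 0.509 and 6.99 ± 1.15 CPM. It was called with both hairpins (0.92, adjusted p = 0.0467, and 1.30, adjusted p = 0.00959), but the first call ended under 10 of 14 alternatives (adjusted p up to 0.239) and the second without GFPsh replicate 2 or FOSL1sh10 replicate 2 (0.0571 and 0.0547). COL6A1 fell with FOSL1sh10 by 0.58 (adjusted p = 0.0151), which was lost without GFPsh replicate 1 or 3 or FOSL1sh10 replicate 3 (0.0631, 0.067 and 0.095). With FOSL1sh3 COL6A1 was at -0.28 (adjusted p = 0.187), not called, and the hairpins were not told apart in it (adjusted p = 0.154).

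Latent TGF-beta and TGF-beta target genes, the system on which ITGB6 and ITGB8 act, had 16 tested genes of 19. Of these 3 rose with FOSL1sh3 and 2 with FOSL1sh10, none fell with either, and the medians were 0.16, 0.41 and -0.07. SMAD3, a signal transducer of the TGF-beta receptors, rose with both hairpins, by 0.63 (edgeR adjusted p = 0.00697) and 0.59 (adjusted p = 0.0125). The second call of SMAD3 was lost without GFPsh replicate 1 or 2 or FOSL1sh10 replicate 2 or 3 (adjusted p 0.0667, 0.0715, 0.0847 and 0.0636). TGFBR2, a receptor chain, rose with FOSL1sh3 by 0.66 (adjusted p = 0.0256), not kept without GFPsh replicate 1 or 2 or FOSL1sh3 replicate 1 (0.082, 0.113 and 0.117). With FOSL1sh10 TGFBR2 was at 0.21 (adjusted p = 0.588), and the hairpins were not told apart in it (adjusted p = 0.107). PMEPA1, a feedback inhibitor of the pathway, rose with FOSL1sh10 by 0.45 (adjusted p = 0.0495), and that call ended under 9 of 14 alternatives (adjusted p up to 0.185). With FOSL1sh3 PMEPA1 was at a similar 0.36 (adjusted p = 0.0854), not called, and the hairpins differed in it by -0.10 (adjusted p = 0.672).

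Non-integrin receptors of the same ligands had 6 tested genes of 10: 2 rose and 1 fell with FOSL1sh3, 0 were called with FOSL1sh10, and the medians were 0.13, 0.05 and 0.33. CD47, a receptor of thrombospondin-1, was at 74.6, 71.5 and 54.1 CPM in GFPsh, 47.6, 35.3 and 30.7 CPM in FOSL1sh3 and 82.2, 85.0 and 68.3 CPM in FOSL1sh10. Its FOSL1sh3 libraries were below all others. CD47 fell with FOSL1sh3 by 0.81 (SE 0.174, edgeR adjusted p = 0.00704; 0.0583 with the trend of fold change on GC content and length removed), was at 0.23 with FOSL1sh10 (adjusted p = 0.502) and differed between the hairpins by -1.05 (adjusted p = 0.000918). SDC1 and SDC4, syndecans that bind fibronectin and other matrix proteins through heparan sulfate, rose with FOSL1sh3 by 0.82 (adjusted p = 0.0014) and 0.87 (adjusted p = 0.0101). The SDC4 call was lost without GFPsh replicate 1 or FOSL1sh3 replicate 3 (0.0596 and 0.0534), and SDC3 did not pass with either hairpin (0.04 and -0.38). With FOSL1sh10 SDC1 and SDC4 were at 0.13 and 0.38 (adjusted p = 0.669 and 0.305), neither called.

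The integrin adhesion complex, the proteins that tie integrin tails to actin, had 27 tested genes of 31. With FOSL1sh3 5 rose and none fell, with FOSL1sh10 0 were called, and between the hairpins 9 were higher and 3 lower in FOSL1sh3. Medians were 0.19, 0.09 and 0.35. FLNA, a filamin that cross-links actin and binds beta chain tails, rose with FOSL1sh3 by 0.72 (edgeR adjusted p = 0.0117). The FLNA call ended with the GC content and length trend removed (0.131) and without GFPsh replicate 3 (0.0574). KANK2, which couples adhesions to the cell cortex, rose by 0.90 (adjusted p = 0.000981) and TNS3, a tensin, by 0.95 (adjusted p = 0.00416). With FOSL1sh10 FLNA, KANK2 and TNS3 were at 0.16, 0.20 and -0.13, none of them called.

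**Figure D4:**
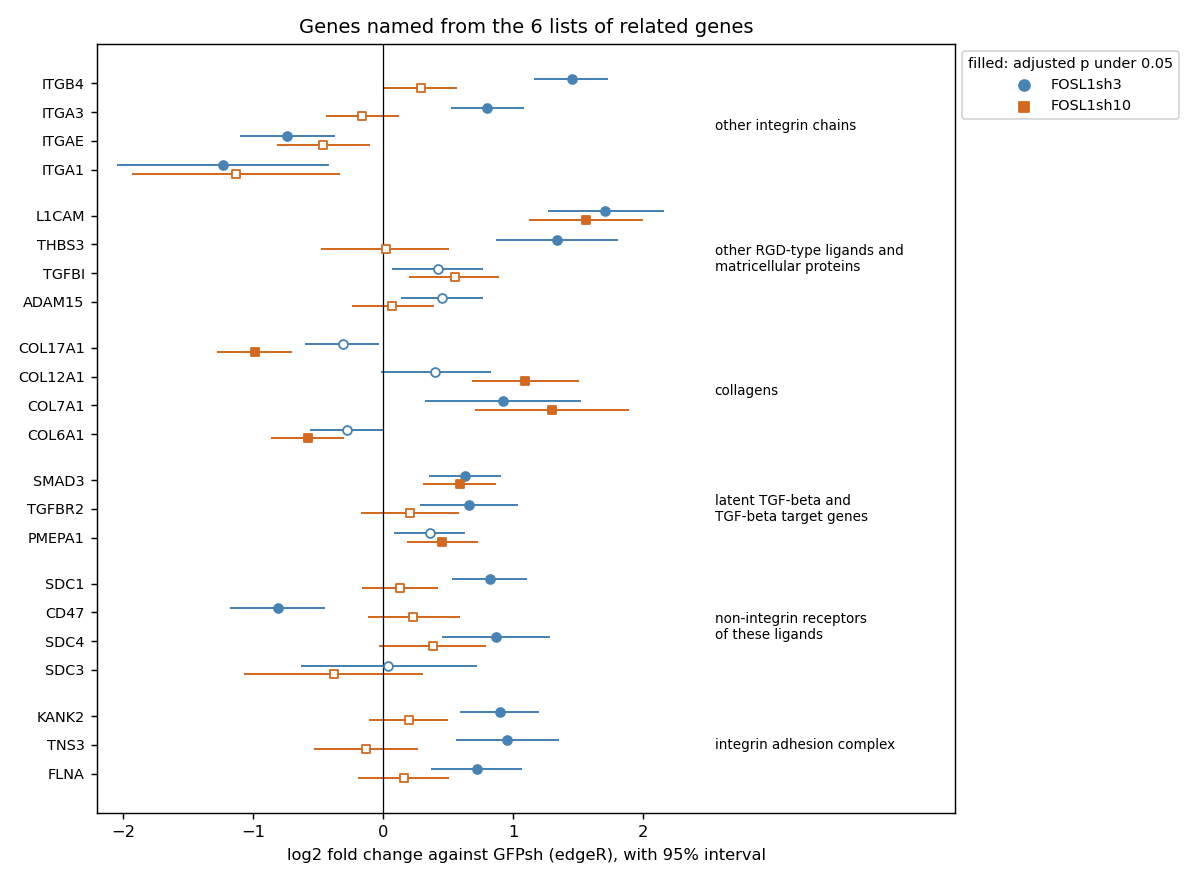
Log2 fold change against GFPsh (horizontal axis, edgeR, with 95% interval) of the genes named from the 6 lists, for FOSL1sh3 and FOSL1sh10, filled where the adjusted p is under 0.05. ITGB4 at 1.45, THBS3 at 1.34 and CD47 at -0.81 are called with FOSL1sh3, and COL17A1 at -0.99 and COL12A1 at 1.09 with FOSL1sh10.

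Across the 9 libraries the genes whose log2 CPM most resembled that of TNC were COX11 and PHLDA1 (Pearson r 0.98 each), and those nearest to THBS1 were DNAJB6 (0.99) and XDH (0.97). For the other members the nearest genes had r between 0.91 and 0.98: YBX1 for ITGAV (0.96), MFSD2B for ITGA5 (0.91), TSC22D1 for ITGA2 (0.96), DNAJC5 for ITGB5 (0.98), STRBP for ITGB6 (0.94), CRY1 for ITGB8 (0.94) and CYP1A1 for FN1 (0.93). Each was the best of 9988 or 9989 genes, so a high value is the rule, and all points share library depth and group. Among the members themselves the closest pairs were ITGA2 with ITGB8 (r 0.77), ITGAV with FN1 (0.75), ITGB8 with THBS1 (0.73) and ITGA2 with THBS1 (0.70). ITGA5 ran opposite to ITGB8 (-0.73) and to THBS1 (-0.64), and ITGB5 opposite to TNC (-0.64). These are descriptions over 9 libraries in 3 groups.

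Some markers of other cell types were higher beside the rise of THBS1. The 5 endothelial markers, none of which passed the filter, summed to 0.772 to 1.1 CPM in GFPsh, 0.577 to 1.33 CPM in FOSL1sh3 and 3.51 to 3.71 CPM in FOSL1sh10, made up mostly of PECAM1 and CDH5. The 5 hepatocyte markers summed to 6.19 to 7.31, 8.08 to 11.6 and 13.8 to 17.6 CPM, of which SERPINA1 alone passed and CYP3A4 was at 0 in every library. The 6 leukocyte markers, with CD3E at 0 in every library and CD14 alone passing, summed to 3.15 to 4.96, 6.16 to 7.79 and 5.28 to 9.27 CPM. The part of these markers in the THBS1 result was not tested.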

How the data were processed

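RNA of 9 libraries was analysed. Per the labels, the library method was MARS-seq for low input, on RNA above a quality minimum. As background, it reads transcripts near the 3′ end, and levels of different genes are therefore not compared. Per the submitters' processing notes, FastQC 0.11.5 and STAR 2.5.3a with hg38 were used. The authors deposited raw counts per gene, and per the file headers these came from featureCounts 1.6.0 over GENCODE release 28 exons with no strand option. The labels and headers do not say whether molecular identifiers were collapsed. Groups and replicate numbers came from the titles.

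Counts were fitted with edgeR 4.0.16 (R 4.3.3): the quasi-likelihood F test with the group alone as term, after TMM scaling and the default expression filter, which asks for a count of 10 and a total of 15. Benjamini-Hochberg adjustment ran over all 12814 genes, and a call is an adjusted p under 0.05. SE is the size of the log2 change over the square root of F. The common biological coefficient of variation was 16.4%. The procedure was tested on simulated data, with 100 genes changed by 1 and 100 by 2 on the log2 scale in FOSL1sh3. It recovered 87% and 100% of them, with 14 false calls against GFPsh, and 0 calls in the unchanged comparison of FOSL1sh10 with GFPsh. The simulated spread followed the trend over all genes and not the spread of each gene. Alternatives were library totals, DESeq2 size factors, DESeq2 1.42.0, other filters (none, or minimum count 30), only the groups compared, a replicate block and each library left out. Removal of a loess trend on GC content and length was chosen after seeing the data.

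The 9 members and all lists were chosen with earlier results of these data known. Named were FOSL1, the members, genes overlapping them, up to 4 genes per list with the smallest p of either hairpin, and the genes most like each member with a mean of at least 30 counts. Some genes that this rule names are not reported here.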

Additional observations from a re-analysis of the deposited data

Results flagged for a closer look

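In 2 members the effect of one hairpin differed from that of the other by a test of the difference itself, FOSL1sh3 against FOSL1sh10 in edgeR's quasi-likelihood fit over all libraries. TNC differed by -1.77 on the log2 scale (adjusted p = 9.97e-06), with 3 of 3 FOSL1sh3 libraries below the FOSL1sh10 libraries. THBS1 differed by -0.69 (adjusted p = 0.00297), again with 3 of 3 FOSL1sh3 libraries below. FOSL1 itself differed between the hairpins by -0.05 (adjusted p = 0.9).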

How the results depend on the processing

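Under 14 alternatives per comparison, 372 values of the 9 genes were recomputed; 355 kept their direction and side of the threshold, 15 changed sign, 2 came past the threshold, and 0 calls were lost. The calls of TNC held throughout, at -1.65 to -1.39 with FOSL1sh3 and -1.95 to -1.65 between the hairpins, as did those of THBS1, at 0.65 to 0.87 with FOSL1sh10 and -0.86 to -0.57 between the hairpins. Sign changes were limited to uncalled genes. With the GC content and length trend removed, ITGA2 and ITGB6 with FOSL1sh3 went to 0.10 and 0.04 and ITGAV between the hairpins to 0.06. With each library left out in turn, the values of 7 results crossed 0: ITGA2, ITGB6 and ITGB8 with FOSL1sh3 ranged from -0.30 to 0.01, -0.51 to 0.30 and -0.22 to 0.35, ITGB5 and ITGB6 with FOSL1sh10 from -0.06 to 0.21 and -0.06 to 0.78, and ITGAV and FN1 between the hairpins from -0.38 to 0.11 and -0.33 to 0.03. ITGA2 between the hairpins passed with library totals alone (-0.64) and without FOSL1sh3 replicate 2 (-0.67), giving 3 members called. The cause was not tested.

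Genes called with FOSL1sh3 numbered 1392, 846 with the trend removed, and 599 to 1803 with 1 library left out. With FOSL1sh10 they numbered 676, 1124 with only the groups compared, and 347 to 422 with 1 library left out. Between the hairpins they numbered 1633, and 712 to 1920 with 1 library left out. Library totals alone changed the percentage of calls that were higher from 48.0 to 34.0, from 59.3 to 77.5 and from 45.1 to 17.6, and moved the median of all genes to 0.11 with FOSL1sh10 and -0.17 between the hairpins. At a minimum count of 30 ITGAV and ITGB8 were not tested. With the replicate block TNC was at -1.46 with FOSL1sh3 and THBS1 at 0.76 with FOSL1sh10, and no call of a member changed. Libraries of the same number shared only a number: their deviations correlated at -0.12 to 0.18 over 9 pairs, against -0.17 to 0.16 for other pairs, and 5 of 9 libraries correlated best with their own number.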
